A study of Homo sapiens with 27 samples.

Results

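The comparison described here set 293T cells that carried the V2084D form of ARID1A against the knockout cells they were made from. 293T is an established human embryonic kidney line that carries the SV40 large T antigen. In the knockout group (KO) the ARID1A gene had been disrupted and no ARID1A was put back. In the V2084D group the same knockout line carried a lentiviral, Flag-tagged ARID1A with the V2084D change, aspartate in place of valine. A further group with lentiviral wild-type ARID1A (WT) in the same knockout background is used below for side-by-side values. Each group had 3 libraries, so the comparison rests on 6 of the 27 samples of the series. It covers the 21113 of 67130 genes in the deposited table that had at least 10 counts in at least 3 of the 6 libraries. The series is about missense changes in the C-terminal part of ARID1A found in cancer. No empty-vector group was analysed here, and the labels do not say whether a group was a single clone or a pool, or whether replicates were separate cultures. The p-values therefore measure only the spread between these libraries, which may be technical.

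ARID1A is the AT-rich interaction domain subunit of canonical BAF (SWI/SNF) complexes, which use ATP to move or evict nucleosomes and so open regulatory DNA. Its C-terminal part is folded into the core of the complex, where it holds subunits of the base module together. The heat shock response is the transcriptional answer of a cell to unfolded protein: heat shock factor 1 (HSF1) is released from chaperones, forms trimers and binds heat shock elements in the promoters of chaperone genes. STUB1, named in the design of the series, is a ubiquitin ligase that binds HSP70 and HSP90 and marks their clients for the proteasome.

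The sequences below show the codon that is changed in V2084D and promoter stretches of the heat shock genes that passed the test, shown because these had the largest differences. The codon lies in exon 20 of 20 of ARID1A on the plus strand, at chr1:26780148-26780150 within the window chr1:26780124-26780174 (GRCh38, GENCODE 29). The capitals mark the valine codon that V2084D changes, near the end of the 2285 codons of the reference reading frame, and whether the lentiviral cDNA keeps the surrounding reference bases is not given in the sources used here.
ARID1A codon of V2084D: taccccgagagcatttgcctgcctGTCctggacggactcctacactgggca

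The promoter stretches come from RefSeq (GRCh38.p14) and are printed 5′ to 3′ on the strand of the gene. Capitals mark GAANNTTC or TTCNNGAA, the inverted pairs of which heat shock elements are built, and each pair reads the same on both strands. Overlapping pairs were counted separately, and 3 alternating units (GAANNTTCNNGAA or TTCNNGAANNTTC) were counted as a triplet. The search covered the 250 bases before each start. Of 35116 such windows of 27305 genes, 11.6% held a pair and 0.441% a triplet. HSPA6 held 3 pairs and 1 triplet, shown at chr1:161524350-161524488 (plus strand). HSPA1A and HSPA1B each held 1 pair, at chr6:31815427-31815454 and chr6:31827623-31827650 (both plus strand). DNAJB1 held 2 pairs in the second of its 3 windows, at chr19:14518427-14518484 (minus strand), and none in the other two.
HSPA6: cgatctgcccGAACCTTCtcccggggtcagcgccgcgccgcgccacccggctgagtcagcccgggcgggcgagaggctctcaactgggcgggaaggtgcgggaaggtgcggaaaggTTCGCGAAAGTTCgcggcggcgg
HSPA1A: gaaaaccctgGAATATTCccgacctggc
HSPA1B: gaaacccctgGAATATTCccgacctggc
DNAJB1: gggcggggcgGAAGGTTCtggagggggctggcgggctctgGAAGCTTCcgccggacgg
Heat shock genes that did not pass the test hold such pairs too: HSPA8 held 4 pairs and 2 triplets, and in the second of their 2 windows HSPD1 held 3 pairs and 2 triplets and HSP90AA1 3 pairs and 1 triplet. HSPH1, which did not pass either, held none. A match of these letters is a description of the sequence and not a measured binding site, and the pairs did not mark out the genes that passed.

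Library totals ran from 33429483 to 52767101 counts in KO and from 41304466 to 51309356 in V2084D. Of 19 markers of the 293 line and kidney, 17 averaged at least 1 CPM (counts scaled to library size), with summed levels of 1650 to 1761 CPM in KO and 1542 to 1637 CPM in V2084D; PAX8 and STMN2 were near 0. Of 20 liver markers, 5 reached 1 CPM, and APOB, APOC3, TTR, AFP and FGA were at 0 in all 6 libraries. On the first principal component (31.5% of the variance) KO replicates 1 and 2 and V2084D replicate 2 lay at -44.3 to -35.2. V2084D replicate 1 lay at 16.6, KO replicate 3 at 39.5 and V2084D replicate 3 at 58.8, so this component did not split the groups. The second component (22.3%) did, with KO at 8.93, 42.3 and 37.8 and V2084D at -18.3, -54.8 and -16.0. Levels below are CPM scaled by the trimmed mean of M-values (TMM), and differences are log2 differences from edgeR's quasi-likelihood fit, with the standard error (SE) of the fit. A gene was called when its p, adjusted over all genes by Benjamini-Hochberg, was below 0.05. The data are from bulk RNA, in which fewer cells expressing a gene and less RNA per cell cannot be told apart.

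In V2084D cells, transcripts of the inducible HSP70 genes HSPA6, HSPA1A and HSPA1B and of their partner DNAJB1 rose, together with the reintroduced ARID1A itself. With the HSP70 pseudogene HSPA7 and the read-through transcript ISY1-RAB43 these made 7 genes called higher, which is 0.0332% of the 21113 tested. No gene was called lower by edgeR, although 709 genes (3.36%) were lower and 681 (3.23%) higher at an unadjusted p below 0.05. DESeq2 called 38 genes higher (0.18%) and 19 lower (0.09%), the same 7 among them. The 2 groups did not overlap in 1519 genes (7.19%) with V2084D higher and in 1478 genes (7%) with V2084D lower. The median log2 difference over all genes was -0.0004. Fitted together with the other 293T groups, which makes 18 libraries, none of the 7 was called (adjusted p 0.466 for ARID1A, HSPA1A and HSPA1B, 0.914 for HSPA6, HSPA7 and DNAJB1, 0.99 for ISY1-RAB43), at nearly the same log2 differences; 1128 genes had an unadjusted p below 0.05 in that fit.

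**Figure D1:**
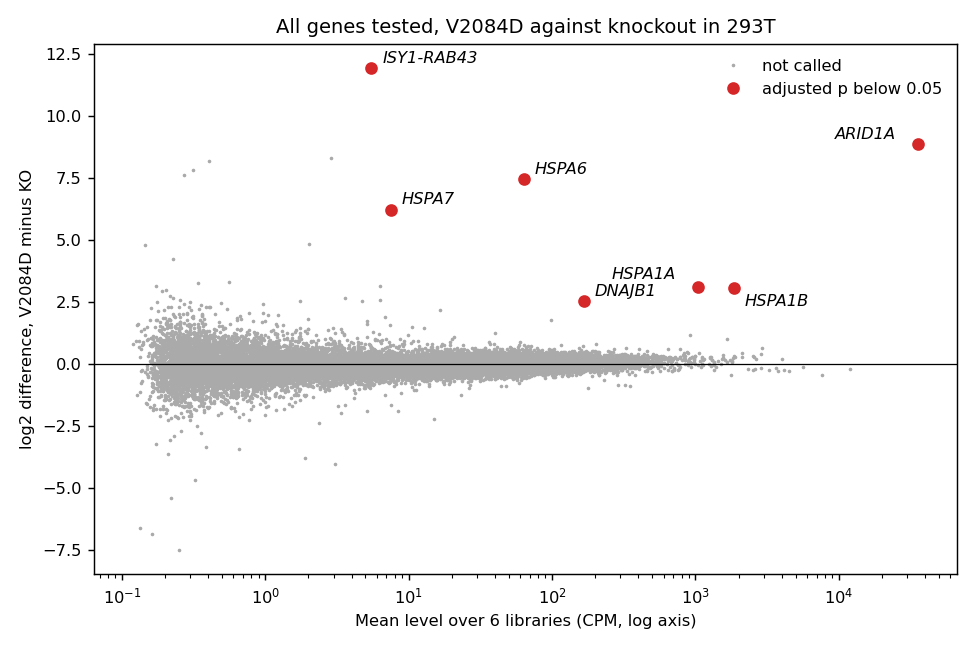
Each point is 1 of the 21113 genes tested, with its mean level over the 6 libraries (CPM, log axis) and its log2 difference, V2084D minus KO. The 7 genes called (large red points) are all above 0, and DNAJB1, HSPA1A and HSPA1B stand clear of genes of like level, at 2.54, 3.13 and 3.06.

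ARID1A (chr1:26693236-26782110, plus strand) was measured at 138, 201 and 119 CPM in the KO libraries and at 53345, 43823 and 117090 CPM in the V2084D libraries. The groups did not overlap, and V2084D replicate 3 was highest. The mean went from 153 ± 43.1 to 71419 ± 39836 CPM (SD, n = 3 each), a log2 difference of 8.87 (SE 0.464, adjusted p = 5.06e-05). ARID1A reads made up 4.28% to 10.6% of all counts in V2084D and 0.0130% to 0.0210% in KO. Counts do not tell the lentiviral cDNA from the endogenous gene, and reads over the disrupted gene still count as ARID1A in KO. The amount of ARID1A transcript and the V2084D change move together in this comparison and cannot be told apart in it.

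Of the other BAF subunits, none was called. The 30 subunits tested had a median log2 difference of 0.04. At an unadjusted p below 0.05, 2 (6.67%) were higher, ARID1A and DPF1, beside 3.23% of all genes. DPF1, a PHD finger subunit of the neuronal form of the complex, measured 14.3 ± 2.91 CPM in KO and 21.8 ± 7.05 CPM in V2084D, and the groups overlapped. ARID1B, the paralog that takes ARID1A's place in a separate set of complexes, measured 91.2 ± 12.0 CPM in KO and 98.1 ± 11.1 CPM in V2084D (log2 difference 0.10, SE 0.158, adjusted p = 0.911). SMARCB1, a core subunit, measured 156 ± 4.73 and 175 ± 23.1 CPM. The 30 Polycomb subunits, which belong to the repressive complexes that BAF opposes, had a median of 0.05. At that p 1 (3.33%) was lower (YAF2, -0.46, SE 0.189, adjusted p = 0.737), beside 3.36% of all genes.

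HSPA6 (chr1:161524540-161526910, plus strand) encodes an HSP70 that is nearly silent in unstressed cells. It was measured at 0.928, 0.632 and 0.588 CPM in the KO libraries and at 146, 70.3 and 163 CPM in the V2084D libraries. Every V2084D library was far above every KO library, and V2084D replicate 2 was the lowest of its group. The log2 difference was 7.47 (SE 0.394, adjusted p = 5.06e-05), 177-fold on the fitted scale.

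HSPA7 (chr1:161606291-161608217, plus strand) is a pseudogene close to HSPA6 in sequence and position. It was measured at 0.255, 0.0575 and 0.242 CPM in KO and at 15.3, 7.46 and 21.6 CPM in V2084D, a log2 difference of 6.23 (SE 0.527, adjusted p = 0.00215). Its share of the summed HSPA6 and HSPA7 level was 9.47% to 11.7% in V2084D. How reads shared by such copies were assigned is not known, so the HSPA7 value is uncertain.

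HSPA1A (chr6:31815464-31817946, plus strand) and HSPA1B (chr6:31827735-31830255, plus strand) encode the main stress-inducible HSP70. HSPA1A was measured at 194, 169 and 285 CPM in KO and at 1760, 1049 and 2846 CPM in V2084D. HSPA1B was measured at 380, 314 and 497 CPM in KO and at 3085, 1946 and 4878 CPM in V2084D. In both genes the groups did not overlap, and V2084D replicate 3 was the highest library and replicate 2 the lowest of its group. The log2 difference was 3.13 for HSPA1A (SE 0.349, adjusted p = 0.0152) and 3.06 for HSPA1B (SE 0.318, adjusted p = 0.0093).

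The 2 genes are near-identical copies, so their separate counts are uncertain and the sum is the safer value. Summed, they measured 483 to 783 CPM in KO and 2995 to 7724 CPM in V2084D. HSPA1B held 63.2% to 66.2% of the sum in all 6 libraries. Their promoter windows match at 235 of 251 bases, and both hold the pair GAATATTC shown above. The call for HSPA1A was lost without KO replicate 1 (adjusted p = 0.0574), without KO replicate 2 (adjusted p = 0.0585) and without V2084D replicate 1 (adjusted p = 0.194). The call for HSPA1B was lost without V2084D replicate 1 (adjusted p = 0.138), while the log2 differences stayed close to 3.

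DNAJB1 (chr19:14514770-14529770, minus strand) encodes the J-domain protein that hands unfolded clients to HSP70 and starts its ATPase. It was measured at 48.1, 53.3 and 45.3 CPM in KO and at 281, 211 and 363 CPM in V2084D. The KO libraries lay within a narrow band and all 3 V2084D libraries were above it. The log2 difference was 2.54 (SE 0.208, adjusted p = 0.00215). HSPA6, HSPA7 and DNAJB1 remained called without each of the 6 libraries in turn.

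**Figure D2:**
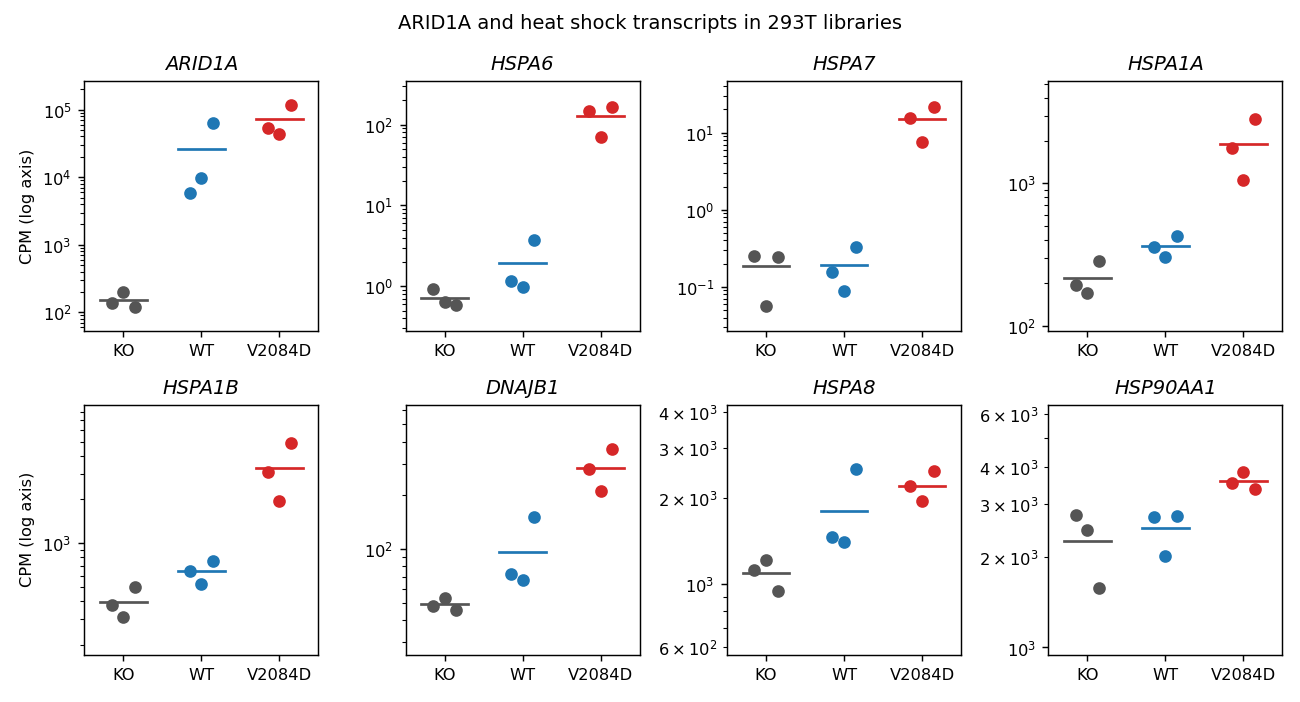
Levels (CPM, log axis) of ARID1A, HSPA7 and 6 chaperone genes in each KO, WT and V2084D library (points, 3 per group) with group means (lines). The V2084D libraries are above all KO libraries in each panel, and the WT libraries are below all V2084D libraries for HSPA6, HSPA7, HSPA1A, HSPA1B, DNAJB1 and HSP90AA1 but not for ARID1A or HSPA8.

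The list of heat shock and chaperone genes had 48 members, all of them tested. Of these 4 were called, 21 (43.8%) were higher and 1 (2.08%) lower at an unadjusted p below 0.05, beside 3.23% and 3.36% of all genes, and 41 had a positive difference. DESeq2 called 9 of the 48, and without V2084D replicate 1 edgeR called 2. Their median log2 difference was 0.38, beside -0.0004 over all genes. Without KO replicate 3 and V2084D replicate 3, the highest library of each group on the first principal component, 4 were called and the median was 0.34. In that fit 20 were higher and 0 lower at an unadjusted p below 0.05, beside 2.25% and 2.54% of all genes. The 48 members together measured 10665 to 13258 CPM in KO and 19355 to 25188 CPM in V2084D. The 44 members that were not called measured 9836 to 12635 CPM in KO and 16078 to 16944 CPM in V2084D. In the WT libraries the same 44 measured 12415 to 16092 CPM, with the highest WT library inside the V2084D range.

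The member nearest the threshold was HSPA8, the constitutive HSP70 (HSC70) that carries out folding and clathrin uncoating in unstressed cells. It was measured at 1118, 1210 and 945 CPM in KO and at 2202, 1952 and 2484 CPM in V2084D. The groups did not overlap, and the log2 difference was 1.02 (SE 0.147), with an adjusted p of 0.114. HSPH1, an HSP110 that acts as nucleotide exchange factor of HSP70, differed by 0.80 (SE 0.161, adjusted p = 0.625), at 147 ± 24.8 CPM in KO and 256 ± 14.5 CPM in V2084D. Neither passed the test here, and DESeq2 called both (adjusted p = 1.72e-06 for HSPA8 and 0.00263 for HSPH1).

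Among the J-domain proteins, DNAJB4 differed by 0.90 (SE 0.179, adjusted p = 0.625), from 25.4 ± 4.28 to 47.4 ± 6.33 CPM (DESeq2 adjusted p = 0.00366), and DNAJA1 by 0.63 (SE 0.183, adjusted p = 0.737), from 214 ± 50.1 to 331 ± 5.53 CPM. DNAJB2 was the only member lower at an unadjusted p below 0.05, at 28.9 ± 3.76 CPM in KO and 19.8 ± 2.89 CPM in V2084D (-0.54, SE 0.173, adjusted p = 0.737). Its 3 V2084D libraries were all below the KO libraries. HSPB8, a small heat shock protein that works with BAG3 in selective autophagy, measured 6.45 ± 1.54 CPM in KO and 12.3 ± 0.596 CPM in V2084D without overlap (0.93, SE 0.210, adjusted p = 0.710; DESeq2 adjusted p = 0.0238). BAG3 itself overlapped between the groups, at 52.3 ± 14.9 and 68.9 ± 21.9 CPM.

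The HSP90 genes were higher in all 3 V2084D libraries without passing the test. HSP90AA1, the inducible form, was measured at 2759, 2453 and 1580 CPM in KO and at 3537, 3844 and 3371 CPM in V2084D (0.66, SE 0.190, adjusted p = 0.737). KO replicate 3 was the low library of its group. HSP90AB1, the constitutive form, differed by 0.46 (SE 0.144). Of their co-chaperones, STIP1, which bridges HSP70 and HSP90, differed by 0.62 (SE 0.152) and AHSA1, which stimulates the HSP90 ATPase, by 0.42 (SE 0.140). UBB, a stress-inducible polyubiquitin gene, differed by 0.48 (SE 0.155).

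The mitochondrial chaperonin genes HSPD1 and HSPE1, which share 1 bidirectional promoter region, differed by 0.45 (SE 0.186) and 0.35 (SE 0.192), and HSPE1 overlapped between the groups. HSPB1, the small heat shock protein HSP27, measured 211 ± 38.2 CPM in KO and 243 ± 71.3 CPM in V2084D, with overlap (0.20, SE 0.232, adjusted p = 0.866). HSF1, the factor that switches on heat shock genes and acts mainly through its protein, measured 131, 135 and 195 CPM in KO and 188, 131 and 253 CPM in V2084D. Its groups overlapped (0.31, SE 0.247, adjusted p = 0.809). Among the 48 members the 4 that passed the test had the largest differences, and the next ones were HSPA1L at 1.06 (SE 0.342, 0.912 CPM in KO) and HSPA8 at 1.02.

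**Figure D3:**
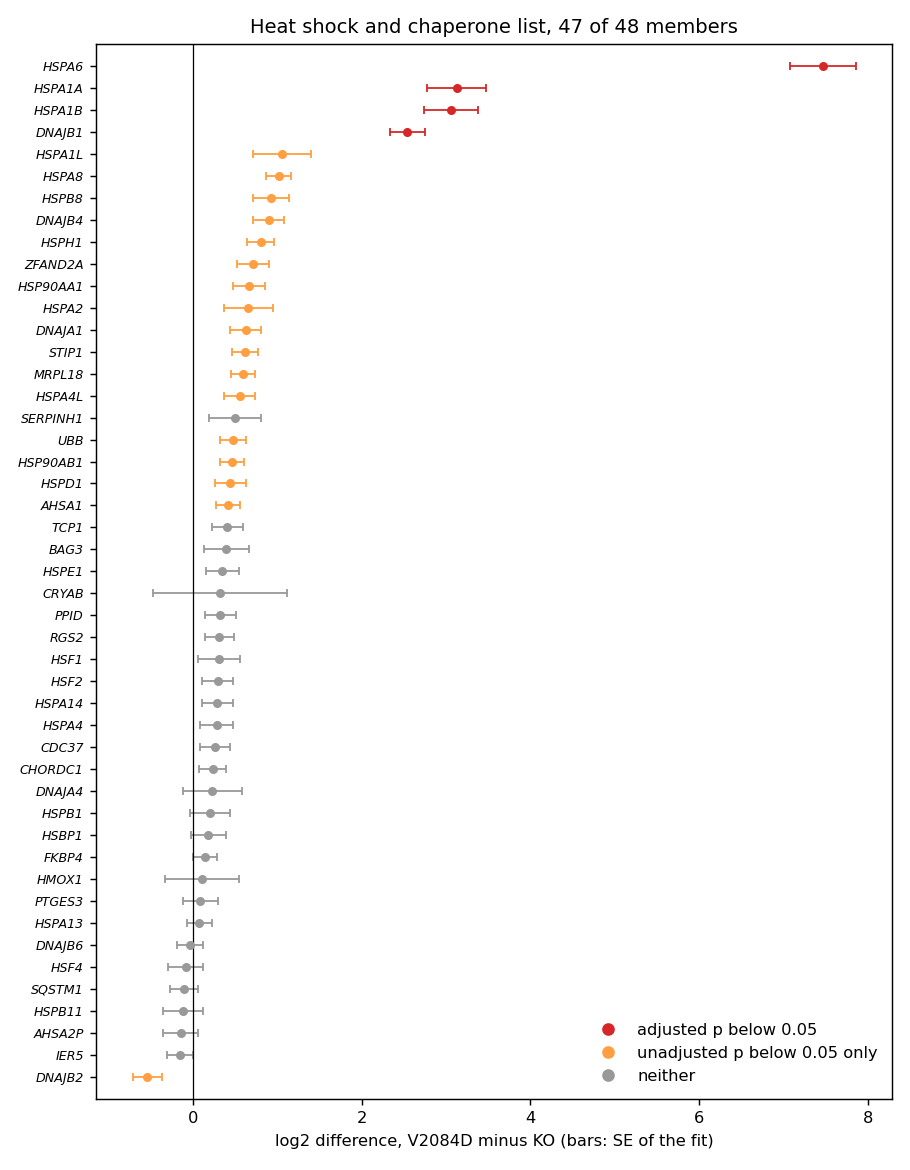
Log2 difference, V2084D minus KO, of 47 of the 48 members of the heat shock and chaperone list (points) with the SE of the fit (bars), ordered by size. HSPA6, HSPA1A, HSPA1B and DNAJB1 (red) passed the adjusted threshold, 17 further members (orange) had only an unadjusted p below 0.05, and DNAJB2 is the orange point below 0.

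STUB1 (chr16:680224-682870, plus strand) was measured at 180, 162 and 178 CPM in KO and at 272, 182 and 257 CPM in V2084D. The lowest V2084D library was just above the highest KO library. The log2 difference was 0.45 (SE 0.173), with an adjusted p of 0.737, so it did not pass the test. WT libraries measured 189 to 338 CPM of STUB1, and V2084D minus WT was -0.16 (SE 0.232). The list of STUB1, BAG proteins and related partners had 18 members, with a median of 0.11. At an unadjusted p below 0.05, 2 (11.1%) were higher, HSPH1 and STUB1, beside 3.23% of all genes. The median was 0.01 without KO replicate 3 and 0.05 without V2084D replicate 2.

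The TRiC/CCT chaperonin folds actin and tubulin, and its 8 subunits all had positive differences, from 0.14 to 0.41. None was called, and 2 (25%) had an unadjusted p below 0.05, beside 3.23% of all genes higher. CCT3 measured 713 ± 82.5 CPM in KO and 922 ± 47.99 CPM in V2084D (0.37, SE 0.137, adjusted p = 0.737). The proteasome list had 33 members with a median of 0.25. At an unadjusted p below 0.05, 2 (6.06%) were higher, the ATPase subunits PSMC5 (0.41, SE 0.142) and PSMC3 (0.40, SE 0.152). These medians depended on KO replicate 3: without it they were 0.18 for TRiC/CCT and 0.15 for the proteasome, while that of the heat shock list was 0.37. The counts moved as well. With offsets for transcript length and GC content 6 of 8 TRiC/CCT and 14 of 33 proteasome members were higher at an unadjusted p below 0.05, beside 7.07% of all genes. Without V2084D replicate 2 these were 2 and 11, beside 7.02% of all genes, and without V2084D replicate 1 they were 0 and 0, beside 1.9%. V2084D minus WT was -0.10 for CCT3, -0.09 for PSMC5 and -0.17 for PSMC3, and none of these passed the test.

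Side by side with wild-type ARID1A, the HSP70 transcripts were also higher in V2084D. In a separate fit of the 3 V2084D and 3 WT libraries over 21110 genes, 7 genes (0.0332%) were called higher and 3 (0.0142%) lower. HSPA6 measured 1.16, 0.968 and 3.72 CPM in the WT libraries, and V2084D minus WT was 6.04 (SE 0.511, adjusted p = 0.000123). HSPA7 differed by 6.31 (SE 0.507, adjusted p = 0.000123). HSPA1A measured 359, 304 and 425 CPM in WT (2.39, SE 0.296, adjusted p = 0.0034), and HSPA1B 640, 524 and 757 CPM (2.38, SE 0.280, adjusted p = 0.00255). All 4 were higher in 3 of 3 V2084D libraries than in any WT library. The calls for HSPA1A and HSPA1B were lost without WT replicate 2 (adjusted p = 0.139 and 0.113), and 4 genes were then called. The other 6 genes called carry clone-based names. This comparison shares its V2084D libraries with that against KO, so it is given beside it and is not separate evidence.

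DNAJB1 measured 72.6, 67.3 and 151 CPM in WT, below all V2084D libraries, and its difference of 1.57 (SE 0.303) did not pass the test (adjusted p = 0.258). Without WT replicate 3 it was 2.05 with an adjusted p of 0.00229. ARID1A was uneven in WT, at 5855, 9586 and 64224 CPM, and V2084D minus WT was 1.43 (SE 0.647, adjusted p = 1). WT replicate 3 held more ARID1A transcript than V2084D replicates 1 and 2, and measured 3.72 CPM of HSPA6 and 425 CPM of HSPA1A. It was the highest WT library for HSPA6, HSPA1A, HSPA1B, DNAJB1 and HSPA8. The part of ARID1A amount in these values was not tested. Without it ARID1A was called, at 3.23 (adjusted p = 0.00136). In WT and V2084D libraries alike HSPA8 was above its KO levels, at 1461, 1401 and 2532 CPM in WT. Of heat shock members not called against KO, V2084D minus WT was 0.93 for HSPA1L, 0.77 for HSPB8, 0.63 for HSPH1 and 0.53 for HSP90AA1. It was 0.31 for HSPA8, 0.14 for STIP1, 0.12 for DNAJA1 and 0.11 for HSP90AB1. For AHSA1, DNAJB4 and UBB it was 0.04, 0.03 and -0.11. None of these passed the test.

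The integrated stress response lowers general translation and raises ATF4, which switches on genes of amino acid supply and of cell fate under stress. None of its 37 members tested was called. At an unadjusted p below 0.05, 11 (29.7%) were higher and 0 lower, beside 3.23% and 3.36% of all genes, and the list's median was 0.17. Without KO replicate 3 and V2084D replicate 3 the counts were 9 and 0 of 36, beside 2.25% and 2.54% of all genes, and the median was 0.16. Without V2084D replicate 3 alone 6 of 36 were higher, beside 1.22% of all genes.

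GDF15, a secreted stress cytokine, was measured at 2.41, 2.16 and 4.07 CPM in KO and at 11.6, 5.53 and 15.5 CPM in V2084D. The groups did not overlap, V2084D replicate 2 lay closest to KO, and the difference was 1.91 (SE 0.385, adjusted p = 0.625). DESeq2 called it (adjusted p = 0.00079). FGF21, a stress hormone, had 0 counts in all KO libraries and 0.636, 0.298 and 0.701 CPM in V2084D, at least 7.87-fold higher against a floor of 3 counts per KO library (adjusted p = 0.469; DESeq2 adjusted p = 0.00184).

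DDIT3 encodes CHOP, a pro-apoptotic factor downstream of ATF4, and measured 4.36 ± 0.738 CPM in KO and 8.26 ± 1.52 CPM in V2084D (0.92, SE 0.227, adjusted p = 0.710). CHAC1, which degrades glutathione, measured 7.98 ± 1.15 and 15.3 ± 4.52 CPM (0.94, SE 0.247, adjusted p = 0.726). ATF4 itself measured 744 ± 105 CPM in KO and 1028 ± 81.6 CPM in V2084D (0.47, SE 0.147, adjusted p = 0.737). The pattern by library was alike in these genes: V2084D replicate 2 was the lowest of its group for GDF15, DDIT3, CHAC1 and ATF4. The other members with an unadjusted p below 0.05 were SESN2 (0.62), PPP1R15A (0.63), ATF5 (0.55), TRIB3 (0.50), SARS1 (0.49) and SHMT2 (0.35), of which PPP1R15A and TRIB3 overlapped between the groups. V2084D minus WT was -0.13 for SARS1, -0.10 for ATF4, -0.06 for ATF5, -0.02 for SHMT2 and 0.005 for TRIB3. It was 0.13 for CHAC1, 0.14 for PPP1R15A and 0.21 for SESN2, and larger for DDIT3 (0.47), FGF21 (0.58) and GDF15 (0.67). None of these passed the test against WT, and WT libraries measured 990 to 1181 CPM of ATF4.

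**Figure D4:**
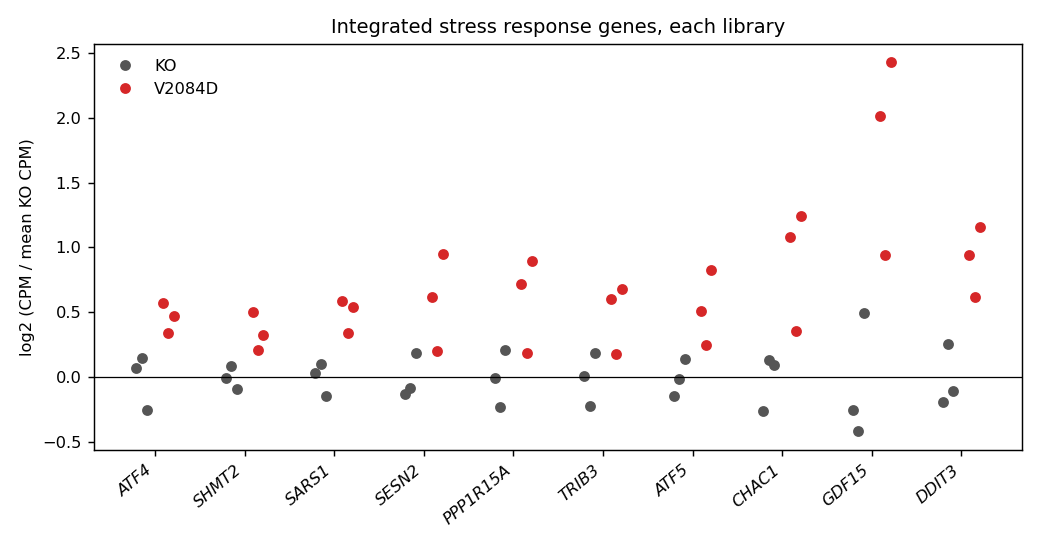
Level in each library as log2 of CPM over the mean KO CPM for the 10 integrated stress response genes with an unadjusted p below 0.05 and counts in KO (grey KO, red V2084D, 3 points each). The genes were picked by that p, so the plot shows the spread only: GDF15 reaches highest, and V2084D replicate 2, plotted between replicates 1 and 3, is the lowest red point of each gene.

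The unfolded protein response answers misfolding in the endoplasmic reticulum. Its 28 members had a median of 0.06, with 0 called. At an unadjusted p below 0.05, 4 (14.3%) were higher and 0 lower, beside 3.23% and 3.36% of all genes. HSPA5, the HSP70 of that compartment (BiP), was measured at 525, 502 and 492 CPM in KO and at 745, 703 and 866 CPM in V2084D. The groups did not overlap, and the difference was 0.61 (SE 0.135, adjusted p = 0.710; DESeq2 adjusted p = 0.0205). WT libraries spanned 548 to 1018 CPM for HSPA5, and V2084D minus WT was 0.05 (SE 0.221). HERPUD1, a part of the degradation machinery of that compartment, differed from KO by 0.69 (SE 0.175). XBP1, a transcription factor of the response, differed by 0.65 (SE 0.208) and MANF, a secreted protein the response induces, by 0.46 (SE 0.143). V2084D minus WT was 0.26 for HERPUD1, -0.04 for XBP1 and -0.08 for MANF, and none of these passed the test.

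ISY1-RAB43 (chr3:129087575-129161036, minus strand) is an annotated read-through of the neighbouring genes ISY1 and RAB43. It had 0 counts in the 3 KO libraries and 6.53, 19.3 and 7.12 CPM in V2084D, at least 159-fold higher against a floor of 3 counts per KO library (adjusted p = 0.0093). It was also at 0 in WT replicate 1 and at 6.08 and 27.9 CPM in the other WT libraries. RAB43 itself had 487, 499 and 928 counts in KO and 556, 61 and 410 in V2084D, with the lowest RAB43 count in the library with most read-through counts. Summed, RAB43 and the read-through measured 11.3, 14.3 and 16.05 CPM in KO and 17.9, 20.8 and 16.1 CPM in V2084D, so that the groups nearly touched. How reads shared by these overlapping genes were assigned is not known, and the call is uncertain for that reason. Leaving out a V2084D library took ISY1-RAB43 below the minimum of 3 libraries with 10 counts, so it was then not tested.

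Beyond the called genes, the largest differences among named genes that did not overlap, averaged at least 1 CPM and had an unadjusted p below 0.05 were of genes with low counts. CDRT4 differed by 2.68 (SE 0.779, adjusted p = 0.737), at 0.209, 2.36 and 0.415 CPM in KO and 3.88, 11.04 and 3.59 CPM in V2084D. Replicate 2 was the high library in both groups. ADORA2A, an adenosine receptor, differed by 2.56 (SE 0.637, adjusted p = 0.710; DESeq2 adjusted p = 0.0245). It measured 0.418, 0.632 and 0.467 CPM in KO and 1.09, 6.32 and 1.53 CPM in V2084D, with V2084D replicate 2 far above the others. WT libraries were as uneven, at 27.3, 1.15 and 0.771 CPM of ADORA2A. V2084D minus WT was -1.70 (SE 0.998) and did not pass the test. CFB, complement factor B, differed by 1.98 (SE 0.459, adjusted p = 0.710), from 0.491 ± 0.234 to 1.98 ± 0.768 CPM (DESeq2 adjusted p = 0.0461).

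In the lower direction the 10 genes picked by the same rule differed by -1.72 to -1.25, with adjusted p from 0.710 to 0.737. PAPLN, a proteoglycan-like matrix protein, measured 1.57 ± 0.278 CPM in KO and 0.470 ± 0.320 CPM in V2084D. LRRC8E, a subunit of the volume-regulated anion channel, had the highest level of the 10, at 9.86, 12.4 and 6.90 CPM in KO and 3.96, 2.90 and 5.37 CPM in V2084D (-1.25, SE 0.291). The WT libraries measured 8.90 to 13.1 CPM of LRRC8E, above all V2084D libraries, and DESeq2 called its difference from KO (adjusted p = 0.0284). Low levels of LRRC8E were not limited to V2084D. Libraries labelled G2087E measured 11.8, 2.01 and 10.5 CPM and those labelled K2025E 2.30, 1.30 and 10.8 CPM. Those labelled G2087R measured 6.14 to 14.1 CPM. The other genes of the 10 were the read-through PRR5-ARHGAP8 (-1.70), the zinc finger gene ZNF564 (-1.45) and the kallikrein KLK1 (-1.34). The rest were the non-coding LINC02249, TBC1D8-AS1, LINC00893, LRRC8C-DT and H3-3A-DT. The last 4 are annotated beside or opposite another gene, and without a stated strand setting their counts may include reads of it.

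AP-1 and immediate early genes, which answer growth factors and stress within minutes, had 34 members tested with a median of 0.05. None was called. At an unadjusted p below 0.05, 3 (8.82%) were higher and 1 (2.94%) lower, beside 3.23% and 3.36% of all genes. FOSB was measured at 3.67, 3.42 and 2.79 CPM in KO and at 7.57, 7.89 and 8.52 CPM in V2084D, with tight groups that did not overlap. Its difference was 1.28 (SE 0.207, adjusted p = 0.216), and DESeq2 called it (adjusted p = 2.06e-05). WT libraries measured 5.43 to 10.7 CPM of FOSB. EGR4 differed by 2.21 (SE 0.570) at under 1 CPM on average, FOSL1 by 0.49 (SE 0.201), and BTG2, an anti-proliferative gene, by -0.54 (SE 0.150).

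The 25 p53 targets tested went both ways, with a median of 0.03. At an unadjusted p below 0.05, 3 (12%) were higher and 4 (16%) lower, beside 3.23% and 3.36% of all genes. The large T antigen of 293T binds p53. GDF15, SESN2 and AEN were the higher members, and the first 2 also stand in the integrated stress response list. AEN, an apoptosis-enhancing nuclease, measured 81.0 ± 2.73 CPM in KO and 119 ± 21.3 CPM in V2084D. PPM1D, a phosphatase that switches p53 signalling off, measured 40.8 ± 2.62 and 28.1 ± 2.496 CPM (-0.54, SE 0.146), and TP53INP1 differed by -0.69 (SE 0.219). Of 16 BCL2 family genes none was called. At that p 2 (12.5%) were lower, BMF (-0.61, SE 0.219) and BCL2L2 (-0.45, SE 0.161), beside 3.36% of all genes.

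HOX genes encode homeodomain factors that pattern the embryo from head to tail and are silenced by Polycomb. They had the lowest median of the 25 lists, -0.31 over 38 members. None was called, 7 (18.4%) were lower and 0 higher at an unadjusted p below 0.05, beside 3.36% and 3.23% of all genes, and 37 had a negative difference. HOXD11 was measured at 46.7, 46.9 and 74.4 CPM in KO and at 37.1, 33.4 and 39.3 CPM in V2084D (-0.61, SE 0.202, adjusted p = 0.737). KO replicate 3 was the high library. HOXA13 measured 24.6, 24.1 and 27.0 CPM in KO and 16.6, 18.9 and 17.99 CPM in V2084D (-0.50, SE 0.150, adjusted p = 0.737). Without KO replicate 3 the list's median was -0.19 with 4 members lower at that p, beside 3.68% of all genes. With offsets for length and GC content the median was -0.40 with 21 lower, beside 6.26% of all genes. The WT libraries were below the KO libraries for both genes as well, at 29.2 to 40.1 CPM of HOXD11 and 12.1 to 18.9 CPM of HOXA13.

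Matrix and adhesion genes had a median of -0.21 over 34 members, and none was called. At an unadjusted p below 0.05, 4 (11.8%) were lower, beside 3.36% of all genes. ITGB1, the common beta subunit of many integrins, measured 138, 121 and 108 CPM in KO and 90.1, 100.2 and 65.9 CPM in V2084D (-0.52, SE 0.184, adjusted p = 0.737). CDH2, N-cadherin, differed by -0.45 (SE 0.155), ITGAV by -0.50 (SE 0.197) and ITGA2 by -0.53 (SE 0.227). The 25 YAP/TEAD targets, often read as a measure of cell adhesion and density, had a median of -0.19. At that p 3 (12%) were lower, CRIM1 (-0.45, SE 0.137), AMOTL2 (-0.36, SE 0.149) and PTPN14 (-0.41, SE 0.182). Without KO replicate 3 the medians were -0.07 for matrix and adhesion and -0.05 for YAP/TEAD. WT libraries measured 74.8 to 79.7 CPM of ITGB1, below all KO libraries as well. V2084D minus WT was 0.14 for ITGB1, 0.16 for CDH2, 0.41 for ITGAV and 0.03 for ITGA2. It was 0.12 for CRIM1, 0.20 for AMOTL2 and 0.41 for PTPN14, and none of these passed the test.

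All 76 cytosolic ribosomal protein genes had a positive difference, with a median of 0.26, a lowest value of 0.02 and a highest of 0.42. None was called, and 5 (6.58%) had an unadjusted p below 0.05, beside 3.23% of all genes higher. RPL23A, a protein of the large subunit, measured 362, 373 and 402 CPM in KO and 538, 413 and 550.5 CPM in V2084D (0.40, SE 0.151, adjusted p = 0.737). V2084D replicate 2 was the lowest of its group. WT libraries measured 478 to 684 CPM of RPL23A, and V2084D minus WT was -0.125 (SE 0.199). The longest annotated transcript of these genes had a median length of 1865 bases. Over all genes, quartiles of that length had medians of 897.5, 2273, 3703 and 6366 bases. Their median differences were 0.04, 0.03, 0.01 and -0.05. With offsets for length and GC content the list's median was 0.21 with 28 members at an unadjusted p below 0.05, beside 7.07% of all genes. Without V2084D replicate 1 it was 0.18 with 0 members, and without V2084D replicate 2 it was 0.34 with 45, beside 7.02% of all genes. Over each of the 6 libraries left out the number of members ran from 0 to 45. The part of length in the result was not otherwise tested.

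The 13 transcripts of mitochondrial DNA went the other way, all negative from -0.29 to -0.14 with a median of -0.22, and none had an unadjusted p below 0.05. MT-CO1, a cytochrome c oxidase subunit, measured 12801 ± 603 CPM in KO and 11313 ± 641 CPM in V2084D. Without V2084D replicate 1 the median was -0.12 with 0 members at that p, beside 2.31% of all genes lower. Without V2084D replicate 2 it was -0.36 with 9 lower, beside 6.36% of all genes. With offsets for length and GC content 4 were lower, beside 6.26%. The 39 nuclear-encoded respiratory chain genes had a median of 0.17 with 38 positive and none at an unadjusted p below 0.05. Without V2084D replicate 2, 13 of them were higher at that p, beside 7.02% of all genes, and with the offsets 4, beside 7.07%.

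The 34 replication genes of the G1/S phase had a median of 0.17. At an unadjusted p below 0.05, 5 (14.7%) were higher and 0 lower, beside 3.23% and 3.36% of all genes. The number higher was 1 without V2084D replicate 1 and 10 without V2084D replicate 2, beside 1.9% and 7.02% of all genes. The 5 were led by RFC2, a clamp loader subunit, at 99.0 ± 1.601 CPM in KO and 140.4 ± 13.1 CPM in V2084D (0.50, SE 0.137, adjusted p = 0.737). GINS3, part of the replicative helicase, differed by 0.44 (SE 0.147). The 32 mitotic genes had a median of 0.11, and 2 (6.25%) were higher at that p, UBE2C (0.36, SE 0.142) and BIRC5 (0.31, SE 0.134). Without KO replicate 3 these medians were 0.07 and 0.05. V2084D minus WT was -0.06 for RFC2, 0.11 for GINS3, -0.35 for UBE2C and -0.23 for BIRC5, and none of these passed the test. Cholesterol and lipid synthesis genes had a median of -0.12 over 27 members, and it was -0.02 without KO replicate 3. At an unadjusted p below 0.05, 2 (7.41%) were lower, beside 3.36% of all genes. These were SCD, the stearoyl-CoA desaturase (-0.42, SE 0.128), and SQLE, squalene epoxidase (-0.37, SE 0.144). V2084D minus WT was 0.26 for SCD and -0.02 for SQLE, and neither passed the test.

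The remaining lists had no called gene, and 4 of the 5 had a median close to that of all genes. The 20 NRF2 antioxidant genes had a median of 0.03 and the 26 lysosome and autophagy genes one of 0.01, and neither list had a member at an unadjusted p below 0.05. The 27 interferon response genes had a median of -0.01 with 1 (3.7%) lower at that p, beside 3.36% of all genes. The 29 glycolysis and hypoxia genes had a median of -0.03 with none at that p. The 6 metallothionein and zinc genes differed from these, with a median of -0.25 that was 0.19 without KO replicate 3. These values bound what was seen at this depth and spread and do not show that the programmes were alike in both groups.

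**Figure D5:**
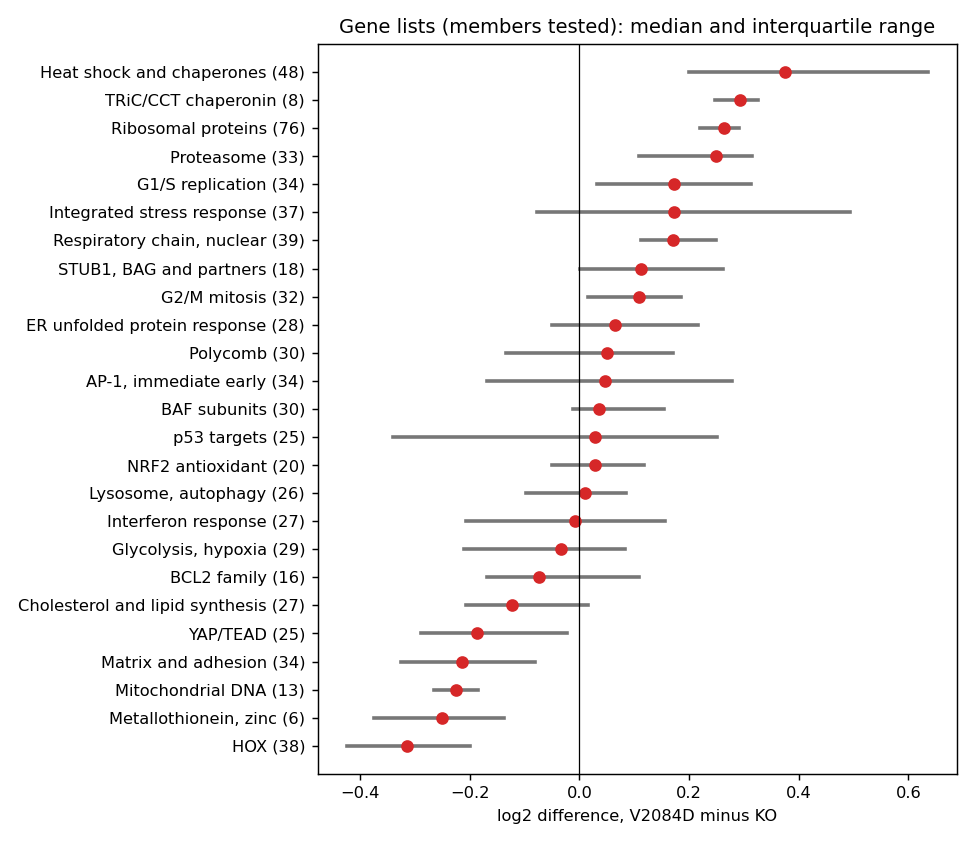
Median log2 difference, V2084D minus KO (points), and the interquartile range of the members (bars) for the 25 gene lists, with the members tested in brackets. The heat shock and chaperone list is highest at 0.38 and HOX lowest at -0.31, beside a median of -0.0004 over all genes.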

How the data were processed

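Libraries were prepared with the NEBNext Ultra II kit from 500 ng of Trizol-extracted, column-purified RNA, per the labels' protocols. The labels' treatment text speaks of Huh7 cells for every sample; the cell line of the libraries used here, 293T, was taken from their titles, cell line labels and column names. The values are raw counts per gene as deposited by the authors, checked to be whole numbers. The build was GRCh38 and edgeR was used, per the submitters' processing notes; aligner, counting tool, annotation release and strand setting are not given in the sources used here. Groups and replicate numbers were taken from the sample titles. All columns of the 293T table matched a sample.

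Genes with at least 10 counts in at least 3 of the 6 libraries were tested by edgeR's quasi-likelihood F test (version 4.0.16, R 4.3.3) with TMM scaling and no covariates, with 0.05 as the limit for p after Benjamini-Hochberg adjustment. The common biological coefficient of variation was 25.6%. SEs are the absolute log2 difference over the square root of F. Pairs of replicates differed by 16.7 to 164 times the variance of counting (chi-square per degree of freedom), so no library was a copy of another. Genes were placed with GENCODE 29. On counts simulated for this comparison (20471 genes tested), the test called 51 of 100 genes made 2-fold different, 88 of 100 made 4-fold different and 7 left unchanged. The changed genes were picked among those averaging at least 1 CPM. Each gene was drawn independently with its own fitted spread, so shifts shared by many genes of a library were not copied. The share called may therefore differ in the data.

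The comparison, its members and the 25 gene lists were chosen with earlier results of these data known. Named genes were ARID1A and STUB1, every called gene, the 10 with the largest difference in each direction (no clone-based name, mean of at least 1 CPM, unadjusted p below 0.05, no overlap) and up to 5 members of each list with the smallest p; further members of the chaperone and stress lists were named to describe the pathway, after their values were seen. Lists are described by counts and medians only, with no set test. Alternatives were RLE size factors, DESeq2 1.42.0, other filters, a replicate block, all 18 293T libraries, ARID1A left out of library sizes and each library left out. Offsets for length and GC content, and leaving out both libraries numbered 3, were chosen after seeing the data. Single values of some list members are not reported here, while the list counts and medians include them.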

Additional observations from a re-analysis of the deposited data

How the results depend on the processing

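Against KO, edgeR called 7 genes, DESeq2 57, the fit of all 18 libraries in 1 model 0, and leaving out each library in turn 5 to 9. With RLE size factors, no filter, or a filter of 1 CPM the same 7 genes were called, and with ARID1A left out of library sizes the other 6. Length and GC offsets gave 8 and leaving out both replicates numbered 3 gave 8. The replicate block gave 64 genes (49 higher, 15 lower, the same 7 among them), 9 of them in the heat shock list. Members higher at an unadjusted p below 0.05 were then 42 of the ribosomal, 15 of the proteasome and 6 of the TRiC/CCT list, and 19 HOX genes were lower, beside 7.61% of all genes higher and 7.7% lower. The labels do not say that replicate numbers mark pairs, so same-numbered libraries were not taken as pairs in the main fit. Their deviations from the group mean correlated at 0.02, 0.17 and 0.36, all positive. Each V2084D library correlated best with the KO library of its own number. Whether the numbers mark pairs is therefore not settled. Against WT, edgeR called 10 genes, DESeq2 17, the replicate block 15, and leaving out each library 4 to 12. ISY1-RAB43 differed from WT by -0.04, and by 1.46 with the replicate block, 0.23 without V2084D replicate 1, 0.20 without V2084D replicate 3 and 1.86 without WT replicate 3, within -0.73 to 1.86 over all libraries left out in turn (adjusted p 0.806 to 1). The cause of these shifts was not tested. The precision was limited by the spread between libraries more than by depth.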

Other observations

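Values of the other ARID1A forms in the same knockout line, scaled alike, are given here without a test. The summed level of HSPA1A and HSPA1B was 5379, 3432 and 6618 CPM in the 3 libraries labelled G2087E and 662, 827 and 1190 CPM in the 3 labelled K2025E. In the libraries labelled G2087R it was 794, 855 and 5965 CPM. ARID1A made up 0.0295% and 0.0326% of counts in the first 2 of these and 6.75% in the third. The part of ARID1A amount in these sums was not tested. In K2025E libraries ARID1A made up 1.27% to 2.03% of counts, and in WT replicate 3, with a sum of 1182 CPM, 6.01%.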
